A study of Mus musculus with 7 samples.

Results

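Immediate early genes were examined in RNA-seq libraries of mouse tail-end tissue with and without Smchd1, a chromosomal protein of the SMC family. The group holds 10 genes chosen by name, namely Fos, Fosb, Jun, Junb, Egr1, Ier2, Ier3, Atf3, Nr4a1 and Dusp1, and each had 1 row among the 25965 rows of the deposited table. The tissue was posterior mesoderm of E9.5 female FVB/N embryos, named presomitic in the series title and postsomitic in the sample labels. The 3 wild-type libraries (Smchd1 +/+) were compared with 4 libraries homozygous for MommeD1, a germline allele called null in the series, and the labels give no treatment for either group. The series text speaks of 3 null samples, and all 4 labelled ones were used. Female embryos without Smchd1 are known to die in mid-gestation. Column names give the genotype but no sample number, so libraries are lettered in file order within each genotype, and the labels do not say whether each is a separate embryo. P-values therefore measure the spread between these libraries, which may in part be technical. The test, limma, also draws the spread of each gene toward that of all tested genes at its level. Each column name ends in a number that the labels do not explain: 18 for wild-type B and null A, 21 for wild-type C and null D, and 22 for wild-type A, null B and null C. An earlier number in the names, also unexplained, is 4168 for null B and null C. It is 4180 for wild-type B, wild-type C and null D. The fits with genotype alone treat all libraries as independent.

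Immediate early genes are transcribed within minutes of a stimulus, without new protein synthesis, when kinases such as ERK, p38 and JNK activate transcription factors already in the nucleus, among them SRF with its ternary complex partners and CREB. Their RNAs are short-lived, and many encode transcription factors that go on to set later gene expression. In embryos several of them, Egr1 and Dusp1 among them, respond to FGF and ERK signalling. They are also known to be induced while tissue is dissected or dissociated.

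Of the 10 genes, 8 were matched by symbol to a RefSeq promoter in GRCm38.p6, the patched assembly of mm10, and Egr1 and Ier2 were not. The 250 bases before the start site are printed for 5 of them. Fos and Fosb had the same 2 libraries highest, Dusp1 holds a complete cyclic AMP response element (CRE), Ier3 had the widest range of levels, and Jun was among the steadiest. Capitals mark the CRE core TGACG on either strand, where CREB and ATF proteins can bind.
Fos: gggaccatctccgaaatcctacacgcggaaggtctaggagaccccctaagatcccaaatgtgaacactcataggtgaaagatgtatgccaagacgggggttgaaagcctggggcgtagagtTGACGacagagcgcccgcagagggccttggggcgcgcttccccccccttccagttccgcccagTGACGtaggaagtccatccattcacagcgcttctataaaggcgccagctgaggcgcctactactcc
Fosb: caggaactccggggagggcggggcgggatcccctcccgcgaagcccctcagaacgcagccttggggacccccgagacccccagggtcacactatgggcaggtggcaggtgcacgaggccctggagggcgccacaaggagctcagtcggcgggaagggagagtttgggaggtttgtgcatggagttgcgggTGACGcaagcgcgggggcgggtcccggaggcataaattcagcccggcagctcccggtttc
Dusp1: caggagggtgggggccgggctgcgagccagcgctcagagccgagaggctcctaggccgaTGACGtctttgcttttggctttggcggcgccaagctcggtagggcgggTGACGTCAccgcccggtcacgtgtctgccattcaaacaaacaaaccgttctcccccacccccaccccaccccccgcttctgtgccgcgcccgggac
Ier3: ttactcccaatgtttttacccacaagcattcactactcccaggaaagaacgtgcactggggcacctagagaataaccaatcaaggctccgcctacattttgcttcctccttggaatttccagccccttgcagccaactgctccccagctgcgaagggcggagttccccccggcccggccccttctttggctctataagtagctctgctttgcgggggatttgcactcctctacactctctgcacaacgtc
Jun: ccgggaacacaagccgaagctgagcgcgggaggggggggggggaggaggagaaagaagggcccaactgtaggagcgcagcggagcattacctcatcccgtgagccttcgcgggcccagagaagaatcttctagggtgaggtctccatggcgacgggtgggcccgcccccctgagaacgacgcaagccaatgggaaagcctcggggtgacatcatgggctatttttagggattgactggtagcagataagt
Of the Dusp1 window the 203 bases outside the deposited row are printed. The windows lie at chr12:85473640-85473889 on the plus strand for Fos, chr7:19310046-19310295 on the minus strand for Fosb, chr17:26508520-26508722 on the minus strand for Dusp1, chr17:35821463-35821712 on the plus strand for Ier3 and chr4:95052223-95052472 on the minus strand for Jun. Each is written 5′ to 3′ in the direction of its gene.

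The core TGACG was found in 6 of the 8 windows (Fos, Fosb, Junb, Atf3, Nr4a1 and Dusp1) and in 17.8% of all 32851 promoter windows of this length. Fos held it at -129 and -66 relative to the start site, and Fosb at -60. Dusp1 held the complete CRE, TGACGTCA, which overlaps the core on both strands, at -143, and 1.55% of all windows held one. Neither Ier3 nor Jun had the core. The AP-1 site TGANTCA was in none of the 8 windows and in 6.75% of all, and the CArG box, the motif named for SRF binding, in none of the 8 and in 1.47% of all. The GC box GGGCGG was in 7 of the 8 windows and in 32.7% of all. All motifs were searched on both strands, and a match describes these letters and not a bound site. The lack of a match likewise covers only these letters within these windows. Sequence further upstream was not searched, and Egr1 and Ier2 had no window. The Jun window holds TGACATCA, which is close to both TGANTCA and TGACGTCA but is matched by neither.

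The deposited values are log2 RPM, reads per M reads of a library denominator of 59.2 to 68.2 M reads, of which 28.8% to 37.9% fell in listed genes, or 19622596 to 23847381 reads. Whole reads could be computed back from the values. A gene was tested when 3 or more libraries exceeded a log2 value of 0, which kept 13997 genes. The median difference between genotypes over these genes was 0.16, so each difference is also given after centring every library on the median of its autosomal genes. Smchd1 itself had 1922 to 2372 reads in null and 5572 to 6552 in wild-type libraries (log2 difference -1.48, limma adjusted p = 0.000238). All 12 listed markers of presomitic mesoderm, such as T, Tbx6 and Msgn1, had reads in every library.

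The Fos family varied widely between libraries. Fos encodes the AP-1 subunit that pairs with Jun proteins, and its row lies on chromosome 12 from 85473890 to 85477273 in mm10. In the wild-type libraries A, B and C it had 35, 74 and 201 reads, or 0.564, 1.13 and 2.95 RPM. The null libraries A, B, C and D held 37, 31, 119 and 459 reads, or 0.551, 0.461, 2.01 and 7.17 RPM. Null D was highest and wild-type C next, and the genotypes overlapped. In such bulk libraries, fewer cells with the RNA and less RNA per cell cannot be told apart. Fos spanned 15.6-fold from the lowest to the highest library. Over 4-fold was spanned by 3 of the 10 members (Fos, Fosb and Ier3). Of the 9 tested members it was 2, against 4.58% of all tested genes, or 3.67% after centring. That share covers genes of every level.

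Fosb, a second Fos-family subunit with strong dependence on stimulation, lies on chromosome 7 from 19302721 to 19310045. It had 12, 9 and 63 reads in wild-type A, B and C, and 6, 6, 5 and 71 reads in null A, B, C and D. The same libraries stood out as for Fos. The exact Poisson 95% interval was 48.4 to 80.6 reads in wild-type C and 55.5 to 89.6 in null D, which covers counting error alone, while no other library exceeded 12 reads. With a log2 value above 0 in 1 library, Fosb was the only member of the 10 that the filter left untested.

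**Figure D1:**
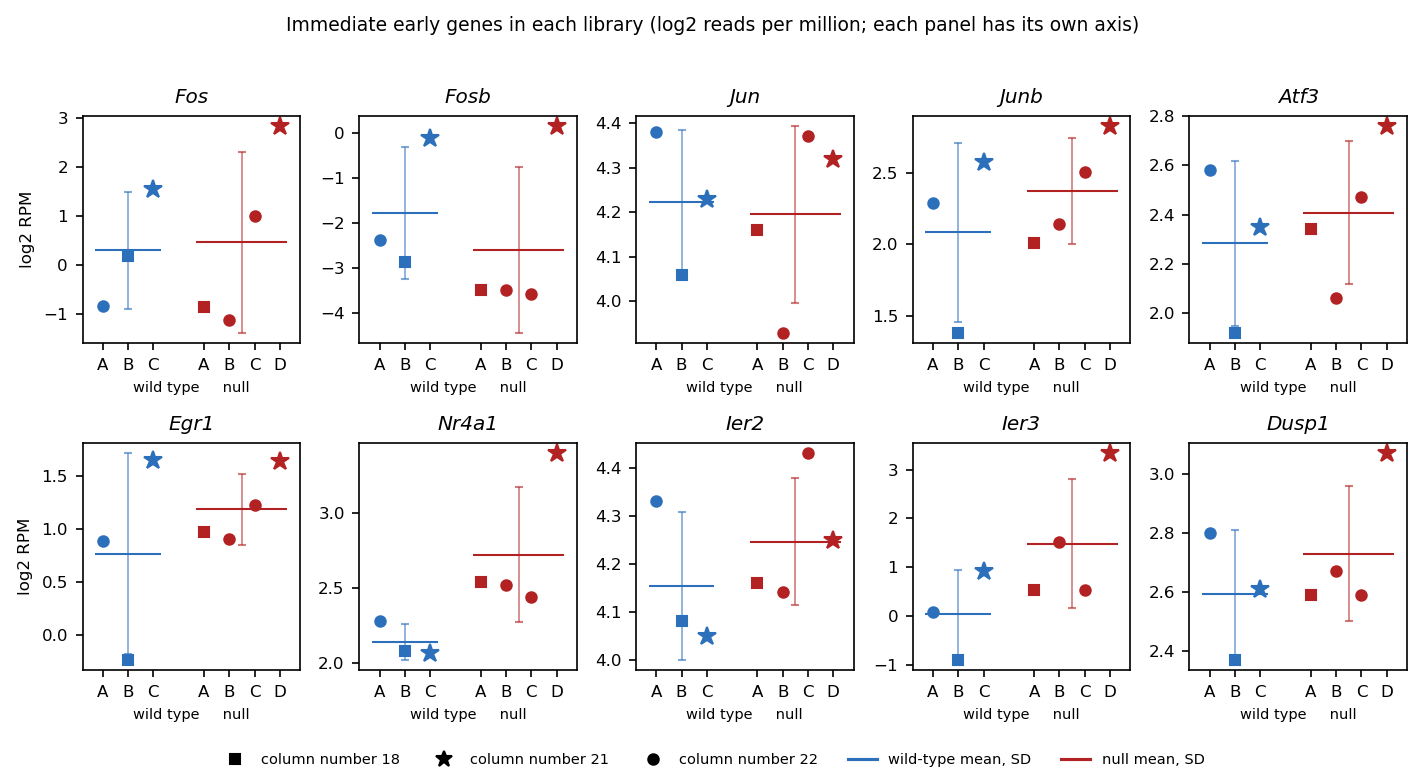
Log2 RPM (y axis, scaled separately per gene) of the 10 genes in the 3 wild-type (blue) and 4 null (red) libraries (x axis). Each point is a library, its shape gives the number that ends the column name, and lines and bars give the group mean and SD. For Fos and Fosb the libraries numbered 21 (stars) are the highest of each genotype, while Jun and Ier2 differ by less than 1.4-fold between any libraries.

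The Jun partners differed from Fos in how much they varied. Jun, the main partner of Fos in AP-1 (chromosome 4, 95049034 to 95052222), had 1296, 1092 and 1279 reads in wild-type A, B and C and 1200, 1023, 1225 and 1278 reads in null A, B, C and D. Its highest and lowest libraries differed by 1.37-fold. The row overlaps BC042782 on the opposite strand by 689 bases, a row with 397 to 619 reads, and since the strand setting of the counting is not given in the sources used here, reads in the shared bases cannot be assigned. Junb, a Jun-family subunit (chromosome 8, 84976909 to 84978748), had 304, 170 and 408 reads in wild-type and 271, 296, 337 and 455 in null libraries. Here wild-type C and null D were again the highest of their genotypes, with wild-type B lowest of all. Atf3, a stress-induced repressor that also pairs with Jun (chromosome 1, 191170296 to 191183340), had 370, 248 and 348 reads in wild-type and 339, 281, 328 and 435 in null libraries. It reached its highest level in null D, and the genotypes overlapped for all 3 of these genes.

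Egr1, a zinc-finger transcription factor and a direct target of SRF and its partners (chromosome 18, 34859823 to 34864984), was lowest in wild-type B, as Junb was. It had 115, 56 and 214 reads in wild-type A, B and C, or 1.85, 0.856 and 3.14 RPM. In null A, B, C and D it had 132, 126, 139 and 200 reads, or 1.96, 1.87, 2.35 and 3.12 RPM. Wild-type C and null D were nearly equal and above the other 5 libraries.

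Nr4a1, an orphan nuclear receptor induced by growth factors (chromosome 15, 101266846 to 101274792), was the member whose genotypes did not overlap as deposited. The wild-type libraries A, B and C held 4.87, 4.23 and 4.19 RPM (302, 277 and 286 reads). The null libraries A, B, C and D held 5.83, 5.74, 5.42 and 10.5 RPM (392, 386, 321 and 675 reads). Null D stood well above the rest, and the other 3 null libraries lay just above the wild-type range. Unlike Fos and Egr1, Nr4a1 was not high in wild-type C.

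Ier2, a nuclear protein gene often used as an immediate early marker (chromosome 8, 84661331 to 84662852), had 1249, 1104 and 1129 reads in wild-type and 1201, 1188, 1279 and 1221 in null libraries. Its range of 1.31-fold was the narrowest of the 10. Ier3, which encodes a regulator of survival and of ERK dephosphorylation (chromosome 17, 35821684 to 35822923), had the widest, at 18.9-fold. It held 66, 35 and 129 reads in wild-type A, B and C and 98, 191, 86 and 647 reads in null A, B, C and D. Null D had 10.1 RPM against at most 2.84 in any other library.

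Dusp1, the phosphatase that switches off p38, JNK and ERK and so closes the response (chromosome 17, 26505590 to 26508519), had 432, 338 and 417 reads in wild-type and 405, 429, 357 and 538 in null libraries. Its levels ran from 5.16 RPM in wild-type B to 8.40 in null D. The other libraries overlapped between genotypes.

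Levels can be compared between the genes only per length, and were divided by the union of exons in GENCODE M21. Ier2 was highest, with a median over libraries of 11.8 RPM per kb (10.9 to 14.2), and Jun next at 5.86 (4.76 to 6.55). Their ranges overlapped neither each other nor that of Atf3, the next by median at 2.37 (1.76 to 3.16). Ier3 had a lower median of 1.29, but its range of 0.473 to 8.94 took in the whole range of Jun, and its mean of 2.44 lay just above that of Atf3 (2.41). From Atf3 downward the order was Junb (2.13), Dusp1 (1.85), Nr4a1 (1.54), Ier3, Fos (0.481) and Egr1 (0.437), and each neighbouring pair had overlapping ranges. Fosb came last at 0.0221 RPM per kb, and its highest library (0.178) stayed below the lowest of Egr1 (0.191).

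Comparing null with wild-type tissue addressed whether loss of Smchd1 changed these genes. None of the 9 tested members passed an adjusted p of 0.05 in limma with genotype alone, on either scale. Of all tested genes 0.0429% passed as deposited and 0.0572% after centring. At an unadjusted p under 0.05 the members numbered 2 as deposited, Ier3 and Nr4a1, and 0 after centring, against 14.0% of all tested genes on each scale. A fit on whole reads with voom, which weights log counts by their precision, gave 0 members at either level. In that fit 8 of all tested genes passed the adjusted level. Differences lay above 0 for 8 of the 9 as deposited (92.7% of all tested genes) and for 4 of the 9 after centring (42.5%). The median difference of the 9 was 0.16, the same as over all tested genes, and -0.03 for both after centring. A limma fit that also held the last number of the column names as a block called 2 members, Ier3 and Nr4a1, as deposited. It called 5.3% of all tested genes on that scale, and 0 members and 0.0572% of genes after centring. On the deposited scale the error in that fit came largely from the trend over all genes. Its SE for Fos was 0.31 there and 0.61 after centring.

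Ier3 had the largest difference. Null libraries averaged a log2 RPM of 1.48 ± 1.32 (SD, n = 4), and wild-type libraries 0.03 ± 0.91 (SD, n = 3). The null minus wild-type difference was 1.45 (SE 0.59, limma adjusted p = 0.31), and 1.25 after centring (adjusted p = 0.397). Leaving out null D brought it to 0.83, or 0.66 centred, and leaving out wild-type B to 0.98, or 0.83 centred. Nr4a1 averaged 2.73 ± 0.45 (SD, n = 4) against 2.14 ± 0.12 (SD, n = 3), a difference of 0.58 (SE 0.23, limma adjusted p = 0.303). Centring gave 0.39 (adjusted p = 0.391) and the genotypes then overlapped. Without null D the Nr4a1 difference was 0.36 as deposited and 0.19 centred. Among all tested genes 7.02% had every null library above every wild-type library as deposited, so 1 such gene in 9 is near that share for so small a group.

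For Fos the interval was wide. Null libraries averaged 0.47 ± 1.84 (SD, n = 4) on the log2 scale, and wild-type ones 0.30 ± 1.20 (SD, n = 3). Their difference, 0.16, had a 95% interval from -1.54 to 1.87 (limma adjusted p = 0.899), and centring moved it to -0.03, from -2.28 to 2.23. Changes of 3-fold in either direction thus lie inside the centred interval. Egr1 differed by 0.42 (SE 0.38, limma adjusted p = 0.585; centred 0.22) and Junb by 0.29 (SE 0.28, adjusted p = 0.605; centred 0.10). Both turned below 0 without wild-type B, at -0.08 for Egr1 and -0.06 for Junb. Fosb, untested under the filter, had a difference of -0.81 (SE 1.10, limma adjusted p = 0.838) in the fit with no filter.

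The steadier members had narrow intervals. Ier2 differed by 0.10 with a 95% interval from -0.20 to 0.39, and by -0.10, from -0.26 to 0.06, after centring. Jun differed by -0.03 (-0.35 to 0.28) as deposited. After centring, the Jun difference was -0.22 (-0.46 to 0.02, limma adjusted p = 0.356), and every null library then lay below every wild-type library, as in 6.24% of all tested genes. Atf3 differed by 0.13 (-0.35 to 0.60; centred -0.07) and Dusp1 by 0.14 (-0.26 to 0.54; centred -0.05), so that Fos, Ier2, Atf3 and Dusp1 changed sign with the scale.

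**Figure D2:**
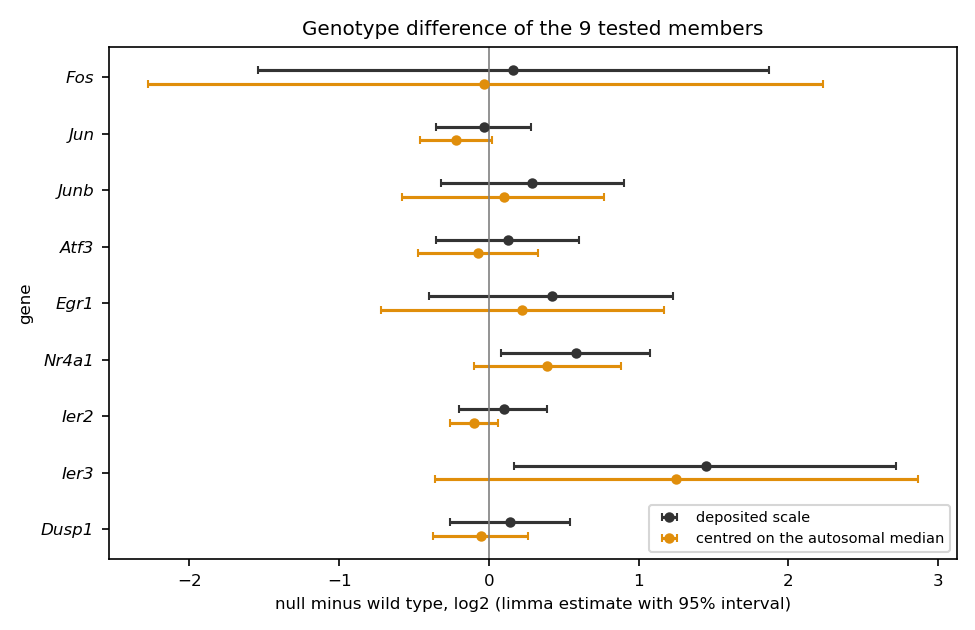
Null minus wild-type difference (x axis, log2) of the 9 tested genes (y axis) with 95% limma intervals, as deposited (dark) and after centring (orange). The centred intervals of all 9 include 0, and that of Fos runs from -2.28 to 2.23.

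Variation between libraries of the same genotype was large for several members. On the centred scale the within-genotype SD of the 9 tested members had a median of 0.33, against 0.12 over all tested genes, and as deposited 0.36 against 0.19. Low genes vary more, so each member was also placed among the genes within 0.5 log2 units of its own mean. By that measure Fos, with an SD of 1.64, was at the 99.3 percentile and Ier3, with 1.17, at the 97.6 percentile. Egr1 (SD 0.66) stood at 88.9, Junb (0.47) at 88.0, and Jun (0.16) and Nr4a1 (0.33) both at 78.2. Atf3 was at 65.3, Dusp1 at 55.2 and Ier2 at 32.5, so Ier2 varied less than most genes of its level.

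**Figure D3:**
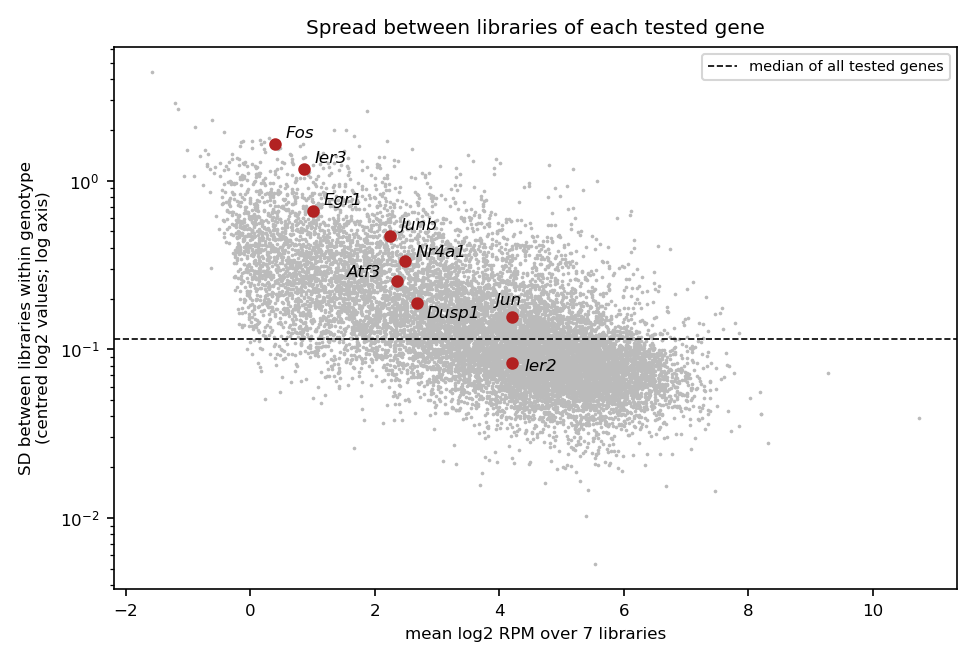
Within-genotype SD of centred log2 values (y axis, log scale) against mean log2 RPM (x axis) for 13997 tested genes (grey), with the 9 tested members in red. Fos and Ier3 lie near the upper edge of the cloud and Ier2 lies below the dashed median of all genes.

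For some members, though not all, the highest library of each genotype was the one whose column name ends in 21. Null D was the highest null library for 8 of the 10 members as deposited, all but Jun and Ier2, and for 41.7% of all tested genes (8 and 27.2% after centring). Wild-type C was the highest wild-type library for 5 members (Fos, Fosb, Junb, Egr1 and Ier3), against 4.25% of all tested genes. Both held at once for those same 5 members, of which 4 were tested, and for 1.91% of tested genes. After centring, wild-type C was highest of its genotype for all 10 members (26.9% of tested genes), and both held for 8 of 10 (8.86%). Wild-type B was the lowest wild-type library for 7 members as deposited (29.8% of tested genes) and for 6 after centring (32.3%). These libraries were picked out after their values were seen, so the counts are a description. Null D had the most reads in listed genes of the 7 libraries and wild-type C the fewest, and the part of depth in these values was not tested.

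A limma fit with genotype and the number as terms compared the libraries numbered 21 or 22 with those numbered 18. Of the 9 tested members 1, Ier3, passed as deposited (difference 1.32, SE 0.39, limma adjusted p = 0.0472), where 3.7% of all tested genes passed. Ier3 did not pass after centring (1.20, adjusted p = 0.392), when 0 members and 0.171% of genes passed, or without wild-type A, wild-type C or null D. Junb reached 0.75 (adjusted p = 0.057) and Fos 1.03 (adjusted p = 0.484) as deposited. A fit with all 3 numbers as levels, chosen after seeing the data, called Fos, Ier3, Junb and Egr1 as deposited, and 5.77% of all tested genes. In it Fos was 2.54 higher in libraries numbered 21 than in those numbered 18 and 2.58 higher than in those numbered 22, but 0.03 lower in 22 than in 18. The SE of the Fos difference between 21 and 18 was 0.40 as deposited and 0.79 after centring. As deposited the error came largely from the trend over all genes, so these calls rest little on the members' own spread. After centring that fit called 0 of the 9 members and 0 of all genes, with 5 members and 2272 of 13997 genes at an unadjusted p under 0.05. What the numbers record was not tested, and the libraries numbered 21 also share the first number of their column names, 4180, with wild-type B.

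Heat shock genes, known to be induced by stress of cells like several of the members, were read beside them. Hspa1a and Hspa1b, the near-identical inducible Hsp70 genes, whose reads the counting could split between them, were summed. They had 61, 110 and 161 reads in wild-type A, B and C and 86, 37, 59 and 1413 in null A, B, C and D. Null D thus held 22.04 RPM against at most 2.36 in any other library. Wild-type C was the highest of its genotype but far below null D. The other 13 heat shock genes of the list were all tested, and in null D they lay between -0.53 (Hspa8, the constitutive Hsp70) and 0.39 (Hspa4l) of their own means on the centred log2 scale. Null D was at least 2-fold above every other library for 2 of the 9 tested members, Fos and Ier3, and for 0.179% of all tested genes; after centring for 1, Ier3, and 0.1%. Without both libraries numbered 21, an alternative chosen after seeing the data, 0 members passed in limma on either scale. Of all tested genes, 1 passed as deposited and 2 after centring. At an unadjusted p under 0.05 the members numbered 1 on each scale, and the share over all genes in these fits was not computed.

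**Figure D4:**
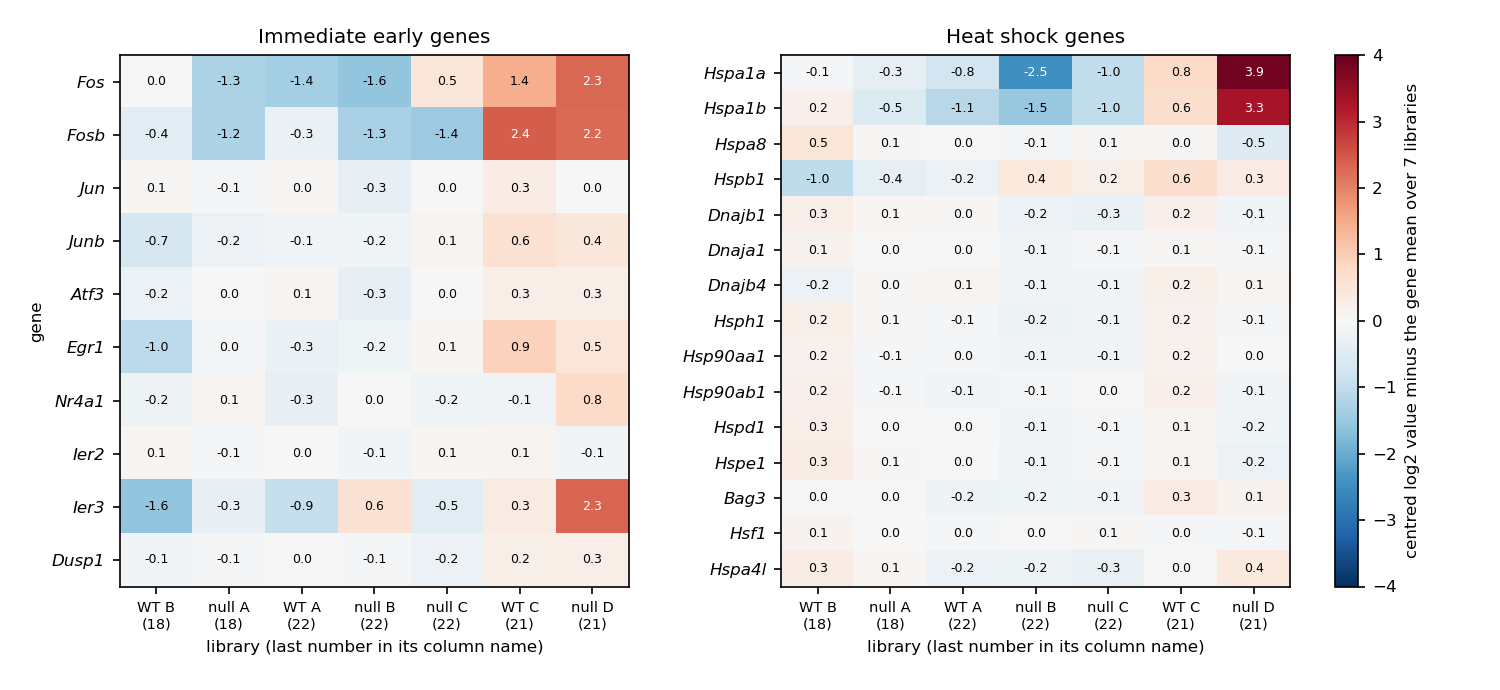
Centred log2 values minus each gene's mean over the 7 libraries (colour and printed values) for the 10 immediate early genes (left) and the 15 heat shock genes of the list (right), with libraries in columns ordered by the number in their names (18, 22, 21). Fos and Fosb are high in both libraries numbered 21, while Hspa1a, Hspa1b and Ier3 are high in null D.

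Genes whose pattern was most like the members were found by the root mean square difference between profiles over the 7 libraries. The mean profile of the 9 tested members had a root mean square of 0.40, with null D at 0.75, wild-type C at 0.45 and wild-type B at -0.42 relative to the mean of all libraries. The 5 closest genes were Spsb1 and Per1 (both 0.14), Klhdc1 and Gm13070 (both 0.15) and Gm17206 (0.17). Per1 is a clock gene that is itself inducible through CREB, and it is on the list of other immediate early genes below. It had 1169 reads in wild-type B, its lowest library, and 2845 in null D, its highest. The gene closest to Fos was Hspa1b, at 0.79 against a root mean square of 1.39 for the Fos profile, followed by Aqp1 (0.93), 1810014F10Rik (0.96), 0610040F04Rik (1.01) and Cyp26b1 (1.02). These distances are descriptions over 7 libraries of the same tissue.

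The wider pathway was followed in 7 lists with 139 genes in all, of which 128 were tested, in 129 rows because Atf7 had 2. With adjustment over all genes, 0 of the 129 rows passed in limma as deposited, and 1, Araf, after centring. The other immediate early genes (34 of 41 tested) had a median difference of 0.14, or -0.06 centred, beside 0.16 and -0.03 over all genes. In that list Arc, a neuronal activity gene, had the smallest p, with 46 to 128 reads in wild-type and 156 to 305 in null libraries (difference 1.22, SE 0.37, limma adjusted p = 0.22; centred 1.02). Arid5a (0.70, adjusted p = 0.298) and Plk2 (0.43, adjusted p = 0.278) followed. Of the 34, 5 had null D and wild-type C as the highest libraries of their genotypes as deposited and 11 after centring.

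Upstream of the members, the SRF, ternary complex and CREB list (12 tested) had a median difference of 0.19, or -0.01 centred. Its smallest p belonged to Crtc3, a CREB coactivator, with 446 to 577 reads in wild-type and 679 to 790 in null libraries (difference 0.53, SE 0.16, limma adjusted p = 0.225), followed by Crem (0.43, adjusted p = 0.309) and Elk3 (0.43, adjusted p = 0.35). Among the MAP kinase genes (23 tested) the median was 0.12, or -0.07 centred. The X-linked kinase Araf had 2389 to 3141 reads in wild-type and 4069 to 4300 in null libraries. Its difference of 0.68 did not pass as deposited (SE 0.13, limma adjusted p = 0.107) and its centred difference of 0.48 did (adjusted p = 0.011). Mapk9 (0.32, adjusted p = 0.308) and Mapk13 (0.65, adjusted p = 0.316) came next.

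Downstream, the MAP kinase phosphatases and Sprouty genes, which feed back on ERK like Dusp1, had a median of 0.23 over 15 tested genes, or 0.03 centred. Dusp4 differed by 0.43 (limma adjusted p = 0.265), Dusp5 by 0.37 (adjusted p = 0.35) and Spry4 by 0.53 (adjusted p = 0.356), with 790 to 1947 reads of Spry4 in wild-type and 1807 to 2225 in null libraries. The AP-1 partners (11 of 12 genes tested, in 12 rows) had a median of 0.20, or 0.01 centred, and the more abundant Atf7 row (0.30, adjusted p = 0.437), Maff (0.34, adjusted p = 0.462) and Jdp2 (0.23, adjusted p = 0.504) had the smallest p. The integrated and endoplasmic reticulum stress list, which includes regulators of Atf3, had a median of 0.10 over 19 tested genes, or -0.09 centred. Sesn2 differed by 0.48 (SE 0.13, limma adjusted p = 0.18), Ppp1r15a by 0.39 (adjusted p = 0.341) and Slc7a11 by 0.43 (adjusted p = 0.438). The heat shock list (14 tested) had a median of 0.05, or -0.14 centred, with the smallest p for Hspb1 (0.53, adjusted p = 0.518), Hsf1 (0.15, adjusted p = 0.563) and Hspa4l (0.17, adjusted p = 0.622).

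Markers of the tissues around the dissected piece were summed per library. Endothelial markers, 6 of 6 detected everywhere, summed to 110 to 240 RPM in wild-type and 179 to 269 in null libraries. The 7 primitive erythroid markers summed to 57.7 to 116 and 81.7 to 106 RPM. Neural tube markers ran from 26.9 to 80.6 RPM in wild-type and 25.5 to 56.8 in null libraries, and the 7 markers of somite derivatives from 23.5 to 78.6 and 32.8 to 77.8. Hindgut markers summed to 47.4 to 89.6 RPM in wild-type and 97.0 to 115 in null libraries, and the 4 notochord markers to 12.1 to 13.4 and 20.8 to 27.8. These sums are not centred. The median null minus wild-type difference was 0.64 for hindgut and 0.91 for notochord markers, or 0.45 and 0.71 centred. For neural tube markers it was -0.35, or -0.54 centred, and over all tested genes 0.16, or -0.03 centred. Olig2 (neural tube) had no read in null B and C, Pax1 (somite derivatives) none in null A, null D and wild-type C, and Uncx none in wild-type C. Of 5 macrophage markers 4 were in the table, with 76.0 to 97.7 and 86.2 to 97.6 RPM. The libraries numbered 21 lay on opposite sides for somite derivatives, with 23.5 RPM in wild-type C, the lowest library, and 77.8 in null D, and for neural tube markers (26.9 and 56.8). The part of these markers in the Fos and Fosb values was not tested. Wild-type B, lowest or near lowest for Junb, Egr1 and Ier3, also had the lowest sums of presomitic (305 RPM against 351 to 491 elsewhere), endothelial, hindgut, notochord and erythroid markers and the highest of neural tube (80.6) and somite derivative (78.6) markers, whose part in those values was not tested.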

How the data were processed

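RNA-seq was compared between 3 wild-type and 4 null libraries. The authors deposited 1 table of log2 values, in RPM per the file headers, with each column holding 1 library. The genome build was mm10, and edgeR, bcl2fastq and TopHat2 (2.0.12) were among the tools, per the submitters' processing notes. How reads were counted, on which strand and with which annotation is not given in the sources used here. Turned back into reads, 100% of values under 1000 reads came out whole (tolerance 0.01), and genes without reads carry a stand-in worth 0.9 read. A count of 0 allows up to 0.044 to 0.0507 RPM (3 reads), for counting error only. Every pair of libraries within a genotype differed by more than sampling noise, and each counts as 1 sample.

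The test for genotype was limma's (3.58.1, R 4.3.3), run on the deposited log2 values (prior trend, Benjamini-Hochberg over 13997 genes, threshold 0.05). The fit was checked only on data simulated on the centred scale with independent noise for each gene. That check does not cover the shifts between libraries of the deposited scale. Alternatives were centring, cyclic loess, quantile normalization, other filters, log2(RPM + 1), other priors, array weights, voom on whole reads, a block on the last number of the column names and leaving out each library. The planned TMM scaling of voom was replaced by median-ratio scaling, since no count table was used. Counts, intervals and plots came from Python 3.11.15 with pandas 2.3.3, numpy 2.4.6 and matplotlib 3.10.9.

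The members and lists were chosen with earlier results of these data known. All 10 members were named. From each list every gene past the threshold was named, or else the 3 with the smallest p, and the 5 genes nearest in profile to the members and to Fos. Summed Hspa1a and Hspa1b, Hspa8, BC042782 and the genes of the closing observations were named after their values were seen. Promoters came from RefSeq (GRCm38.p6).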

Additional observations from a re-analysis of the deposited data

Results flagged for a closer look

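Among the 4 null libraries, 3 members had 1 library far from the others by Dixon's ratio of gap to range, above its 95% limit for 4 samples. For Fosb null D stood above the rest, with a ratio of 0.98 as deposited and 0.94 after centring. Nr4a1 gave 0.89 and Dusp1 0.83 as deposited, again for null D. Of 20 such checks (10 members on 2 scales) 4 passed the limit, all for null D. Chance flags about 1 in 20 independent checks, but the 2 scales reuse the same reads, so these are not independent. The count was therefore not tested against that rate. The share flagged among all tested genes was not computed, and null D was the highest null library for 41.7% of them as deposited. The 3 wild-type libraries are too few for this check.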

How the results depend on the processing

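No member passed under centring, cyclic loess, quantile normalization, either other filter, log2(RPM + 1), the robust or trendless prior, voom, or leaving out any library on either scale. Ier3 did not reach the stricter filter and was not tested under it. Array weights, whose fit stopped before convergence, called 7 members, 76 listed genes and 9190 genes in all. No pairing by sample number was possible because the columns carry none. Whether the last numbers of the column names pair the libraries could not be decided. Of libraries sharing a number, those numbered 18 correlated at 0.36 in their deviations and those numbered 22 at 0.20 and 0.41. Null D and wild-type C, which also share a number, correlated at -0.05. Libraries with unlike numbers ran from -0.36 (null C and wild-type B) to 0.25 (null B and wild-type C), so the ranges overlap. With these numbers as a replicate block, 2 members (Ier3, limma adjusted p = 5.96e-06, and Nr4a1, adjusted p = 0.0457), 5 listed genes and 742 genes in all (5.3%) were called as deposited. The block with centring called 0 members. The deposited block fit took its error largely from the trend over all genes, so its p-values rest little on the members' own spread. The median residual SD of the members went from 0.36 to 0.31 with the block as deposited, and from 0.33 to 0.21 with the block on the centred scale.

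Genes called numbered 6, against 19 with cyclic loess, 16 with quantile normalization, 13 with the stricter filter, 53 with a robust prior, 3 with no trend, and 1 as deposited and 2 centred without both libraries numbered 21. Leaving out 1 library gave 2 (without wild-type C) to 4205 (without wild-type A). Listed genes called were 0 as deposited and 1 with centring, cyclic loess, quantile normalization, a robust prior, voom or the centred block, and 0 to 29 on leaving out 1 library. Members called by number were 1 as deposited, 0 centred, and 4 as deposited and 0 centred with 3 levels, and 0 to 3 on leaving out 1 library.

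Of 251 alternative member differences, 57 changed sign. Centring, cyclic loess and quantile normalization gave -0.03, -0.21 and -0.16 for Fos, -0.10, -0.08 and -0.09 for Ier2, -0.07, -0.13 and -0.17 for Atf3, and -0.05, -0.10 and -0.13 for Dusp1. Quantile normalization gave -0.02 for Junb. Voom gave -0.07 for Ier2, -0.04 for Atf3 and -0.02 for Dusp1, and the centred block -0.10, -0.04 and -0.03. Without both libraries numbered 21 the centred values were -0.09 for Fos and -0.05 for Ier2, Atf3 and Dusp1. Array weights gave -0.13 for Fos and 0.07 for Jun. On leaving out 1 library, on both scales, differences ran from -0.80 to 0.79 for Fos, -0.27 to 0.06 for Jun, -0.21 to 0.54 for Junb, -0.23 to 0.86 for Egr1, -0.14 to 0.18 for Ier2, -0.20 to 0.27 for Atf3, and -0.15 to 0.24 for Dusp1. Ier3 (0.66 to 1.89) and Nr4a1 (0.19 to 0.68) kept their direction. The causes of these changes were not tested. Fosb, with 5 to 12 reads in 5 libraries, is limited by depth.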

Other observations

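Some feedback and stress genes of the wider lists, picked here after their values were seen, were also highest in null D. How many listed genes were highest there was not counted, and null D was the highest null library for 41.7% of all tested genes as deposited. Gadd45b, a stress-inducible growth arrest gene, had 392 reads in null D against 62 to 156 in the other 6 libraries. Tnfaip3, an inhibitor of NF-kB signalling, had 656 reads against 154 to 381. Zfp36, which promotes decay of short-lived messenger RNAs, had 248 against 47 to 181, and wild-type B was its lowest library. Trib3, a target of the integrated stress response, had 185 against 37 to 100. Others of that list were also highest there, among them Vldlr (2174 against 461 to 943), Ddit4 (2906 against 1268 to 1955) and Ddit3 (638 against 388 to 487). Of the same list, Atf4 (1856 against 1794 to 2051) and Asns (2275 against 2063 to 2306) lay within the range of the other libraries. Myc moved the other way, with 766 reads in null D against 1351 to 1710 in the other libraries. Trib1 (844 against 933 to 1374), Mcl1 (2529 against 2698 to 3279) and Rhob (1595 against 1631 to 1964) also had their fewest reads in null D. Klf4 did not single out null D: it had 133 reads there, 131 in wild-type C and 128 in null B, against 24 to 95 in the rest. These values are given without a test.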
